A study of Mus musculus with 12 samples.

Results

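The 40 genes described here encode proteins of the nucleolus that build ribosomes, together with RNA polymerase I (Pol I) and its cofactors. They were listed by name for this function, and the rule uses no measured value, although the list was drawn up with earlier results of these data known. All 40 were among the 17007 rows of the deposited expression values and among the 14397 genes tested. They were divided into 7 roles, namely 3 nucleolar scaffold and chaperone proteins, 3 core proteins of box C/D small nucleolar ribonucleoproteins (snoRNPs), 4 core proteins of box H/ACA snoRNPs, 2 rRNA modification enzymes, 10 small subunit processing factors, 10 large subunit processing factors and 8 Pol I transcription proteins.

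Pol I transcribes the ribosomal DNA into a long precursor, and snoRNPs modify this precursor while processing factors cut it into the rRNAs of the small and large ribosomal subunits. MYC is known to drive transcription of many genes of this pathway, and it binds DNA at the E-box, whose canonical letters are CACGTG. mTORC1 is known to support Pol I transcription and to act on the initiation factor Rrn3 through phosphorylation, a step that RNA levels do not measure.

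RNA was sequenced from 12 libraries in 4 groups of 3 mice. Normal livers came from wild-type C57BL/6 mice. The other groups were c-MYC/MCL1/RictorKO Tsc2KO hepatocellular carcinomas from mice given vehicle, MLN0128 or everolimus. For these tumors, c-MYC, MCL1 and Cre plasmids were delivered by hydrodynamic tail vein injection to mice with floxed Rictor and Tsc2 alleles (Rictor fl/fl Tsc2 fl/fl), so all 3 tumor groups carried both oncogenes and both deletions. Hydrodynamic injection reaches a share of the hepatocytes only, and the uninjected cells of the tumor tissue kept the floxed alleles. MLN0128 is an inhibitor of the mTOR kinase and so of both mTOR complexes, whereas everolimus, a relative of rapamycin, inhibits mTORC1. Either drug was given by gavage at 1 mg/kg per day, 6 days a week, for 3 weeks from day 6 after injection, and mice were sacrificed at 3.7 weeks. Another passage of the sources puts the treatment before sequencing at 3 days instead, a disagreement that could not be settled, and the labelled duration is used here. Vehicle followed the same schedule. Sexes and ages per mouse are not given in the sources used here.

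Expression is given as FPKM, the authors' read counts scaled for gene length and sequencing depth. Reads recovered from these FPKM numbered 17166387 to 25185210 per library (median 18661344). At this depth a gene with 2 kb of exons and 3 reads would be listed at 0.0496 to 0.144 FPKM, depending on the library. Gene-wide Rictor values were 1.65 to 2.57 FPKM in normal livers, 1.05 to 1.5 FPKM in vehicle tumors, 1.65 to 2.21 FPKM in MLN0128 tumors and 1.58 to 1.93 FPKM in everolimus tumors. Tsc2 was at 4.5 to 5.32, 2.01 to 2.31, 2.81 to 3.96 and 2.78 to 2.87 FPKM in the same order, and neither set of values resolves the deleted exons. The FPKM of 8 hepatocyte markers summed to 80044 to 100295 in normal liver and to 1760 to 7791 over the 9 tumor libraries, while 4 proliferation markers summed to 1.22 to 4.55 FPKM in normal liver and 34.2 to 109.7 FPKM in tumors. In bulk tissue, fewer cells of a type and less RNA per cell cannot be told apart. Xist RNA was present in MLN0128 replicates 1 and 2 (191 and 155 FPKM), where 4 Y-linked genes were listed at 0. It was below 0.1 FPKM in the other 10 libraries, where all 4 Y-linked genes had reads. By these RNAs the 2 libraries came from females and the other 10 from males. Sex and MLN0128 treatment thus cannot be fully told apart. Rises and falls called in the MLN0128 comparisons below are also given without both replicates. Counts past the 1.5-fold threshold, counts by overlap of libraries and counts at an unadjusted p are not.

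RefSeq promoters (GRCm38.p6, 250 bases before to 50 after the transcription start) were available for 35 of the 40 genes. CACGTG, which reads the same on both strands, occurred in 7 of the 35 (20%), against 11.8% of 10217 tested genes with a promoter and 14.8% of those past the 1.5-fold threshold in vehicle tumors. Within the 100 bases before and 50 after the start the counts were again 7 members (20%), against 7.57% of tested genes. The 7 genes were Nop2, Ltv1, Utp20, Pes1, Mybbp1a, Wdr43 and Rrn3, which held the letters at 2 places. Promoter sequence is shown for the 6 of them with the largest rises in vehicle tumors, that is all but Rrn3, with CACGTG in capitals and the sense strand 5′ to 3′. Nop2 (chr6:125131633-125131912, plus strand) held them 60 bases before the start, and Wdr43 (chr17:71615965-71616244, plus strand) and Pes1 (chr11:3963725-3964004, plus strand) at bases 18 and 3 after it, counting the start as base 1.
Nop2: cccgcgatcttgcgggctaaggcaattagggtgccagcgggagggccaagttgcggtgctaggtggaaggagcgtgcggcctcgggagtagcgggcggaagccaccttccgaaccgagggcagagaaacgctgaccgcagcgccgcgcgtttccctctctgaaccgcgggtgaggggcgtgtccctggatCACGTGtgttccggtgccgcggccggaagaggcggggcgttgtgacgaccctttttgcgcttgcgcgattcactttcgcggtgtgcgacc
Wdr43: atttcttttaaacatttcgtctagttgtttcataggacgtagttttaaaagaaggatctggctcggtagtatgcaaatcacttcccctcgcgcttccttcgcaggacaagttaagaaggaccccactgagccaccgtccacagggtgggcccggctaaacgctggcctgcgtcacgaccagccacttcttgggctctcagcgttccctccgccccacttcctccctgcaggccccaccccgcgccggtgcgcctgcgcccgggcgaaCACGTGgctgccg
Pes1: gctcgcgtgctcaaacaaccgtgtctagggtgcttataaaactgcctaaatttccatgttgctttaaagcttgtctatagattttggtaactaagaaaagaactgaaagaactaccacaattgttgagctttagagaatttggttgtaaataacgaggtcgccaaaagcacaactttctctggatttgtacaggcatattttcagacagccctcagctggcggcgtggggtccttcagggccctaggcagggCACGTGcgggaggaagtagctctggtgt
Shorter windows are given where the letters lie further into the transcript, at base 41 of Mybbp1a (chr11:72441347-72441376, plus strand), base 38 of Utp20 (chr10:88826765-88826794, minus strand) and base 29 of Ltv1 (chr10:13193092-13193121, minus strand).
Mybbp1a: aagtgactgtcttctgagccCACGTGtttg
Utp20: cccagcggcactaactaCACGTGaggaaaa
Ltv1: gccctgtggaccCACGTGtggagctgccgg
The 7 genes with the letters had a median log2 fold change of 1.64 between vehicle tumors and normal liver, and the 28 without them 1.85. A match of letters is a description and was not tested as a binding site.

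Vehicle tumors were first compared with normal livers. The genes rose nearly throughout: 38 of 40 were higher in the moderated test of limma (Benjamini-Hochberg adjusted over all tested genes), against 36% of tested genes, and none was lower, against 33%. In 38 genes every vehicle tumor lay above every normal liver, which held for 39% of tested genes. The threshold test of limma (treat) placed 35 genes past a 1.5-fold rise, against 15.9% of tested genes. The median log2 fold change of (FPKM + 1) was 1.85, beside 0.06 over all tested genes, and the ratios of mean FPKM ran from 1.17 for Nop10 to 8.96 for Nop56. Without the scaling carried by the deposited values, that is by plain library totals, the median of all genes moved to 0.62 and that of the 40 genes to 2.62. Proliferation and hepatocyte markers moved with the same contrast in all 9 tumor libraries, as given above, and their part in the result was not tested.

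**Figure D1:**
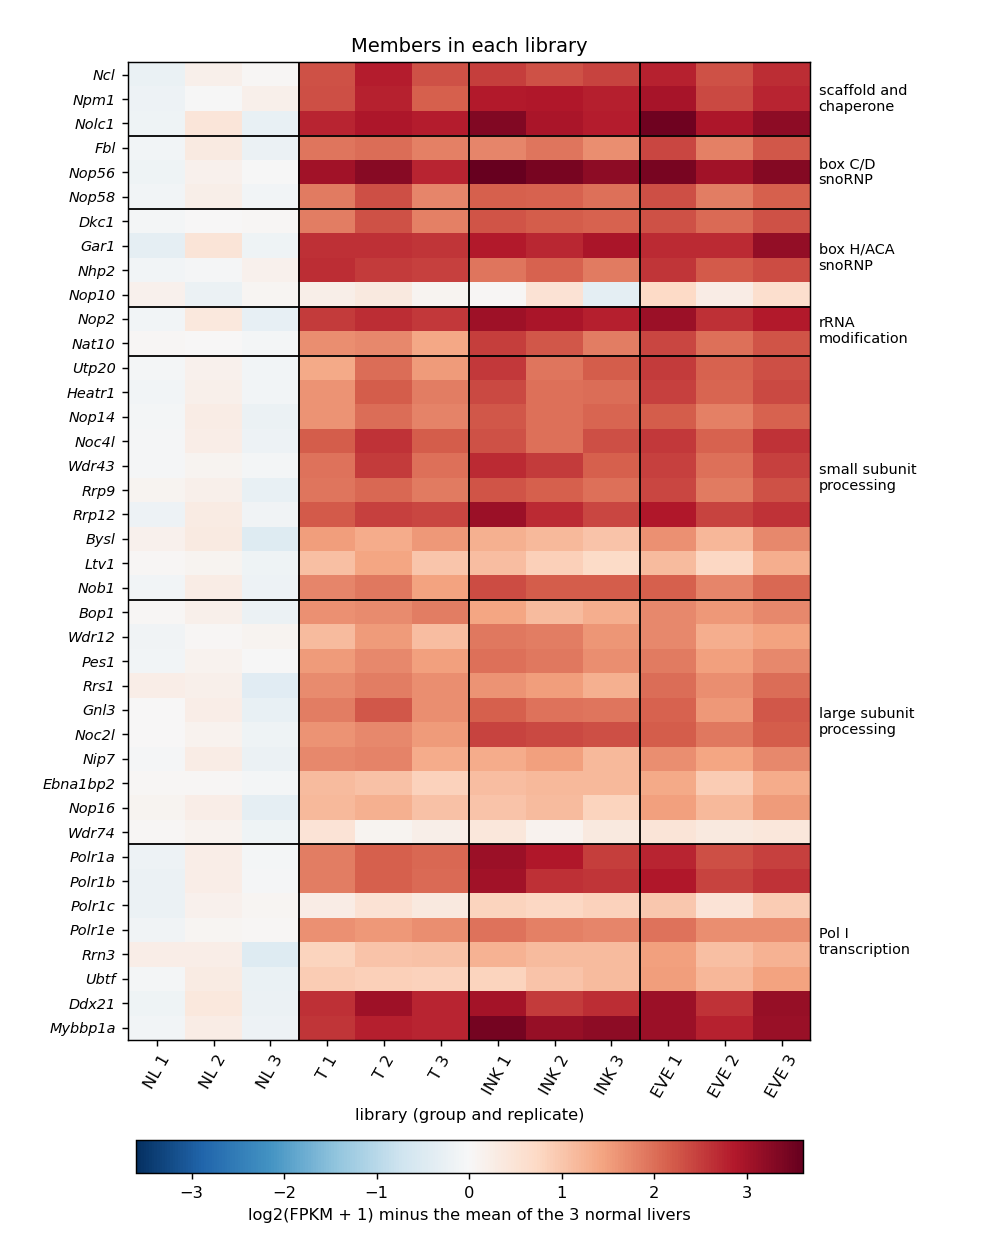
Log2(FPKM + 1) of the 40 genes (rows, by role) in the 12 libraries (columns) minus the mean of the 3 normal livers, on a color scale from blue (lower) to red (higher). Tumor columns are red in nearly all rows, the rows of Nop10, Wdr74 and Polr1c are pale, and the darkest row is that of Nop56.

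Of the 3 scaffold and chaperone genes, Npm1 and Ncl were among the members with the highest FPKM. Npm1 encodes nucleophosmin, an abundant chaperone of ribosome assembly, and normal livers had 100, 112 and 128 FPKM of it. Vehicle tumors had 566, 773 and 506 FPKM of Npm1, every value over 3 times the highest normal liver. The mean rose 5.43-fold (log2 fold change 2.41, SE 0.20, adjusted p = 9.87e-07). Because 53.8% of its transcript is near-identical to 4 other genes, the Npm1 level is uncertain. Ncl, which encodes nucleolin, had 28, 38.4 and 34.7 FPKM in normal liver and 168, 245 and 168 FPKM in vehicle tumors, a 5.75-fold rise (adjusted p = 4.50e-07). Nolc1, a chaperone of snoRNPs, rose 7.65-fold from 8.25 ± 2.57 to 63.1 ± 3.51 FPKM (SD, n = 3).

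Box C/D snoRNPs guide 2′-O-methylation of rRNA, with fibrillarin (Fbl) as the methyltransferase and Nop56 and Nop58 as its scaffold. Nop56 had 7.71, 9.87 and 8.63 FPKM in normal livers and 77.5, 92.8 and 64.5 FPKM in vehicle tumors. Its log2 fold change of 3.02 (SE 0.16, adjusted p = 4.12e-08) exceeded that of the other 39 genes. Fbl rose 4-fold, from 9.54, 13.3 and 8.81 FPKM to 42.5, 44.9 and 39.3 FPKM (adjusted p = 1.68e-06), and Nop58 rose 4.61-fold. Nop56 and Nop58 hold 5 and 4 annotated snoRNA genes within their bounds, and such snoRNAs are made from the introns of their host genes.

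Box H/ACA snoRNPs guide pseudouridylation, with dyskerin (Dkc1) as the enzyme and Gar1, Nhp2 and Nop10 as the other core proteins. Their genes did not change together. Nhp2 had 41.3, 43.5 and 49.3 FPKM in normal livers and 286, 259 and 249 FPKM in vehicle tumors, a 5.92-fold rise (adjusted p = 3.49e-08). Gar1 rose 7.13-fold and the X-linked Dkc1 4.34-fold. Nop10 differed: its values of 94.4, 72.7 and 88.7 FPKM in normal liver overlapped the 99.1, 108 and 91.2 FPKM of vehicle tumors, with a log2 fold change of 0.22 and an interval from -0.23 to 0.68 (adjusted p = 0.351). In normal liver Nop10 thus stood at the highest FPKM of the 4 core genes, and the interval of its fold change lay below those of the other 3. Under plain library totals and quantile normalization Nop10 did pass the test (log2 fold changes of 1.15 and 0.98, adjusted p = 5.51e-05 and 0.000249).

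Both modification enzymes rose. Nop2, a cytosine methyltransferase of the large subunit rRNA whose promoter is printed above, went from 8.23, 11.8 and 7.02 FPKM to 55.4, 61.4 and 55.9 FPKM (6.38-fold, adjusted p = 1.86e-07). Nat10, the acetyltransferase of rRNA and tRNA cytidines, went from 3.17, 3.11 and 2.86 FPKM to 11.9, 12.3 and 9.68 FPKM (3.71-fold, adjusted p = 4.97e-06). All tumors were above all normal livers for both genes.

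All 10 small subunit factors rose past 1.5-fold, with ratios from 2.39 for Ltv1 to 6.86 for Rrp12. Wdr43, a component of the small subunit processome, had 12.6, 14 and 12.3 FPKM in normal livers and 53.5, 78.1 and 53.8 FPKM in vehicle tumors (4.77-fold, adjusted p = 1.66e-06). Nop14, of the same processome, went from 7.61, 9.93 and 6.81 FPKM to 26.7, 35.5 and 30.3 FPKM (3.80-fold, adjusted p = 1.22e-06). The groups did not overlap for either gene. The early processome proteins Utp20 and Heatr1 rose 4.19-fold and 4.68-fold, Noc4l 6.01-fold and the U3 snoRNP protein Rrp9 4.41-fold. Of the factors of the later pre-40S particle, Bysl rose 3.02-fold, Ltv1 2.39-fold and the nuclease Nob1 3.66-fold, beside Rrp12 above.

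Of the 10 large subunit factors, 9 rose, all past 1.5-fold, and Wdr74 was not called. Rrs1, which takes part in loading 5S rRNA, went from 19.6, 18.6 and 12 FPKM to 55.4, 61.7 and 54.3 FPKM (3.41-fold, adjusted p = 4.09e-06). Nop16 went from 27.5, 30.3 and 20.5 FPKM to 59.4, 63.5 and 54.5 FPKM (2.27-fold, adjusted p = 4.63e-05). All vehicle tumors again lay above all normal livers. The PeBoW complex, made of Pes1, Bop1 and Wdr12, rose 3.12-fold, 3.50-fold and 2.87-fold. Reads on Pes1 and Wdr12 are uncertain, since 60.5% and 15.9% of their transcripts are near-identical to other genes. Smaller shares of the transcripts of Nop56 (9.07%) and Ddx21 (8.43%) are also near-identical to other genes. Gnl3 (nucleostemin) rose 4.13-fold, Nip7 3.29-fold, Noc2l 3.27-fold and Ebna1bp2 2.09-fold. Wdr74 was low throughout, at 0.0788 to 0.298 FPKM (2 to 6 reads) in normal liver and 0.273 to 0.691 FPKM (11 to 28 reads) in vehicle tumors. It missed the test (adjusted p = 0.0783), but it was called under plain library totals (adjusted p = 0.0119) and without vehicle replicate 2.

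The 8 Pol I genes rose by unlike amounts. Polr1a and Polr1b encode the catalytic core and rose 5.49-fold and 4.95-fold, from 2.08 ± 0.490 to 11.4 ± 1.38 FPKM and from 3.22 ± 0.694 to 15.9 ± 1.72 FPKM (SD, n = 3). The Pol I-specific Polr1e rose 4.37-fold. Polr1c, a subunit that Pol I shares with Pol III, went from 15.3, 20.1 and 19.0 FPKM to 21.9, 26.1 and 23.2 FPKM, a 1.31-fold rise (log2 fold change 0.38, interval 0.06 to 0.69, adjusted p = 0.0356). The test was lost for Polr1c with the replicate number as a block (adjusted p = 0.0578) and in the fit without the Xist libraries (adjusted p = 0.0522), neither of which moved the fold change of 0.38. The Xist libraries are in neither group of this comparison and enter it only through the pooled spread. Polr1c also lost its call when normal liver 1, vehicle tumor 2 or vehicle tumor 3 was dropped. Over all alternatives its log2 fold change ran from 0.26 to 1.25, with moderated-test adjusted p from 5.95e-06 to 0.151. The initiation factors Rrn3 and Ubtf rose 2.02-fold and 1.88-fold without passing the 1.5-fold threshold (treat adjusted p = 0.0794 and 0.11).

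The nucleolar cofactors Ddx21 and Mybbp1a had the largest fold changes of the 8 Pol I genes. Ddx21, an RNA helicase, went from 9.49, 14.3 and 9.14 FPKM to 71.2, 96.9 and 78.1 FPKM (7.48-fold, adjusted p = 3.83e-07). Mybbp1a, a nucleolar protein that binds MYB, went from 8.15, 10.8 and 7.55 FPKM to 57.5, 66.7 and 64 FPKM (7.10-fold, adjusted p = 4.98e-08). The groups were far apart for both genes, with the lowest tumor over 4 times the highest normal liver.

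**Figure D2:**
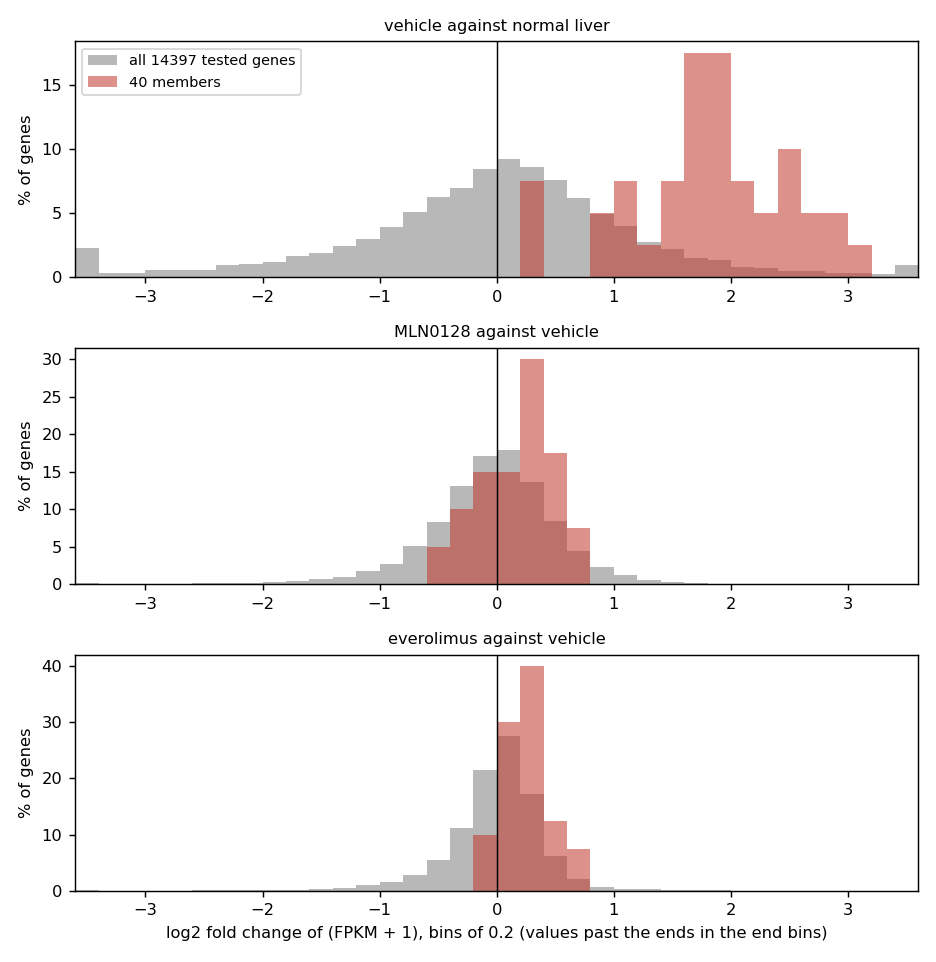
Distribution of log2 fold changes of (FPKM + 1) for the 40 genes (red) and all 14397 tested genes (gray) in 3 comparisons, as percent of each set in bins of 0.2. In vehicle tumors against normal liver the 40 genes sit between 0.22 and 3.02, while in both drug comparisons they lie within 0.8 of 0.

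MLN0128 tumors were then compared with vehicle tumors. Of the 40 genes, 9 rose (22.5% of them, against 14.9% of tested genes), 2 fell (against 17.1%) and 29 were not called. None passed the 1.5-fold threshold in either direction, where 0.479% of tested genes were higher and 1.65% lower. The median log2 fold change was 0.21, beside -0.01 over all tested genes. All 3 MLN0128 libraries lay above all vehicle libraries in 13 genes (22.1% of tested genes) and below them in 4 (23.4%). Markers of other cell types moved with the same contrast. The summed FPKM of 5 cholangiocyte markers was 36.8 to 92.5 with vehicle and 10.3 to 28.1 with MLN0128, and that of 6 macrophage markers 58.3 to 92.2 and 23.5 to 34.2. The hepatocyte markers summed to 3672 to 5899 and 1760 to 3767 FPKM, with overlap. The proliferation markers summed to 66.1 to 83.4 and 34.2 to 109.7 FPKM, again overlapping. Single markers moved in unlike directions. Cyp3a11 (6.79 to 22.1 and 25.8 to 67.6 FPKM) and Serpina1a (32.1 to 41.1 and 41.9 to 101 FPKM) were higher in every MLN0128 library. Apoa1, Ttr and Tat were lower in every one, and the other hepatocyte markers overlapped. The macrophage markers Adgre1, Csf1r and Clec4f and the cholangiocyte markers Krt7 and Spp1 overlapped too. Sums of 6 lymphocyte markers were 0.485 to 0.587 and 0.694 to 2.17 FPKM. Their part in the result was not tested.

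Pol I genes made up 4 of the 9 that rose. Library values of genes beyond the 2 most abundant of each role are given here because of their calls, that is after their values were seen. Polr1a had 9.87, 12.5 and 11.9 FPKM with vehicle and 24.8, 21.5 and 16 FPKM with MLN0128, with no overlap. Its log2 fold change was 0.79 (SE 0.18, adjusted p = 0.00599). Polr1b had 14.1, 17.5 and 16.2 FPKM against 32.8, 24.8 and 23.7 FPKM (0.72, SE 0.17, adjusted p = 0.00741), again without overlap. Polr1c rose by 0.42 (adjusted p = 0.0449) and Mybbp1a by 0.56 (adjusted p = 0.0159), whereas Polr1e (0.22), Rrn3 (0.21), Ubtf (0.12) and Ddx21 (-0.08) were not called.

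Outside the Pol I role, Noc2l showed the smallest adjusted p of the 40 genes. It takes part in export of large subunit precursors and is also known as an inhibitor of histone acetyltransferases. Its values were 35, 37.8 and 32.9 FPKM with vehicle and 62.7, 59.4 and 58.1 FPKM with MLN0128 (log2 fold change 0.75, SE 0.12, adjusted p = 0.000846). Exons of Samd11 on the opposite strand cover 20.9% of Noc2l exons, and whether the counting used strand is not given in the sources used here. Nat10 (0.59, adjusted p = 0.0181), Utp20 (0.58, adjusted p = 0.0346), Nob1 (0.54, adjusted p = 0.0229) and Wdr12 (0.52, adjusted p = 0.0219) also rose.

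The 2 genes that fell were Nhp2 and Bop1. Nhp2 had 286, 259 and 249 FPKM with vehicle and 172, 196 and 167 FPKM with MLN0128, a ratio of 0.674 (log2 fold change -0.57, SE 0.13, adjusted p = 0.00803). Bop1 had 39.9, 41.5 and 45.1 FPKM against 33.4, 27.5 and 30.9 FPKM, a ratio of 0.726 (-0.45, SE 0.12, adjusted p = 0.0167). Both stayed above every normal liver. Within the PeBoW complex Bop1 thus fell, Wdr12 rose and Pes1 was not called (0.27, interval -0.02 to 0.56). Among the H/ACA genes Dkc1 (0.21), Gar1 (0.22) and Nop10 (-0.16) were not called.

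The 2 most abundant genes of each role were mostly not called. With MLN0128, Npm1 stood at 821, 835 and 790 FPKM and Ncl at 192, 167 and 186 FPKM. Nop56 stood at 117, 102 and 89.6 FPKM and Fbl at 37.8, 42 and 35.5 FPKM, and Nop10 at 86.6, 121 and 66 FPKM. All Npm1 values thus exceeded those with vehicle, whereas the other 4 genes overlapped them. Nop2 stood at 80.9, 74.3 and 66.8 FPKM and Nat10 at 21.6, 18.1 and 13.5 FPKM, and both lay above all vehicle tumors. The processome genes overlapped the vehicle values, with Wdr43 at 88.5, 78.8 and 60.7 FPKM and Nop14 at 41.6, 35 and 37.6 FPKM. Of the large subunit genes, Nop16 stood at 53.1, 57.9 and 45.3 FPKM, with overlap, and Rrs1 at 52.3, 47.9 and 41.6 FPKM, below all vehicle tumors. Ddx21, at 93.1, 66.7 and 72.7 FPKM, overlapped them and Mybbp1a, at 105, 84 and 89.7 FPKM, did not.

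These calls depended on the libraries. Without the 2 MLN0128 libraries that held Xist RNA, a single MLN0128 library remained and was assumed to vary like the rest. Noc2l (0.71, adjusted p = 0.0291) and Nhp2 (-0.66, adjusted p = 0.0482) alone were then called, and the median fell to 0.11. The other 9 called genes kept their direction, with log2 fold changes of 0.55 for Polr1b, 0.53 for Utp20, 0.51 for Mybbp1a, 0.48 for Nob1, 0.46 for Polr1a and Polr1c, 0.33 for Wdr12, 0.24 for Nat10 and -0.43 for Bop1. Left out in turn, vehicle replicates 1 and 3 and MLN0128 replicate 1 reduced the rises from 9 to 5, 4 and 3, and without vehicle replicate 3 or MLN0128 replicate 2 there was 1 fall in place of 2. Plain library totals gave 17 rises and 1 fall, and quantile normalization 18 rises and no fall.

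**Figure D3:**
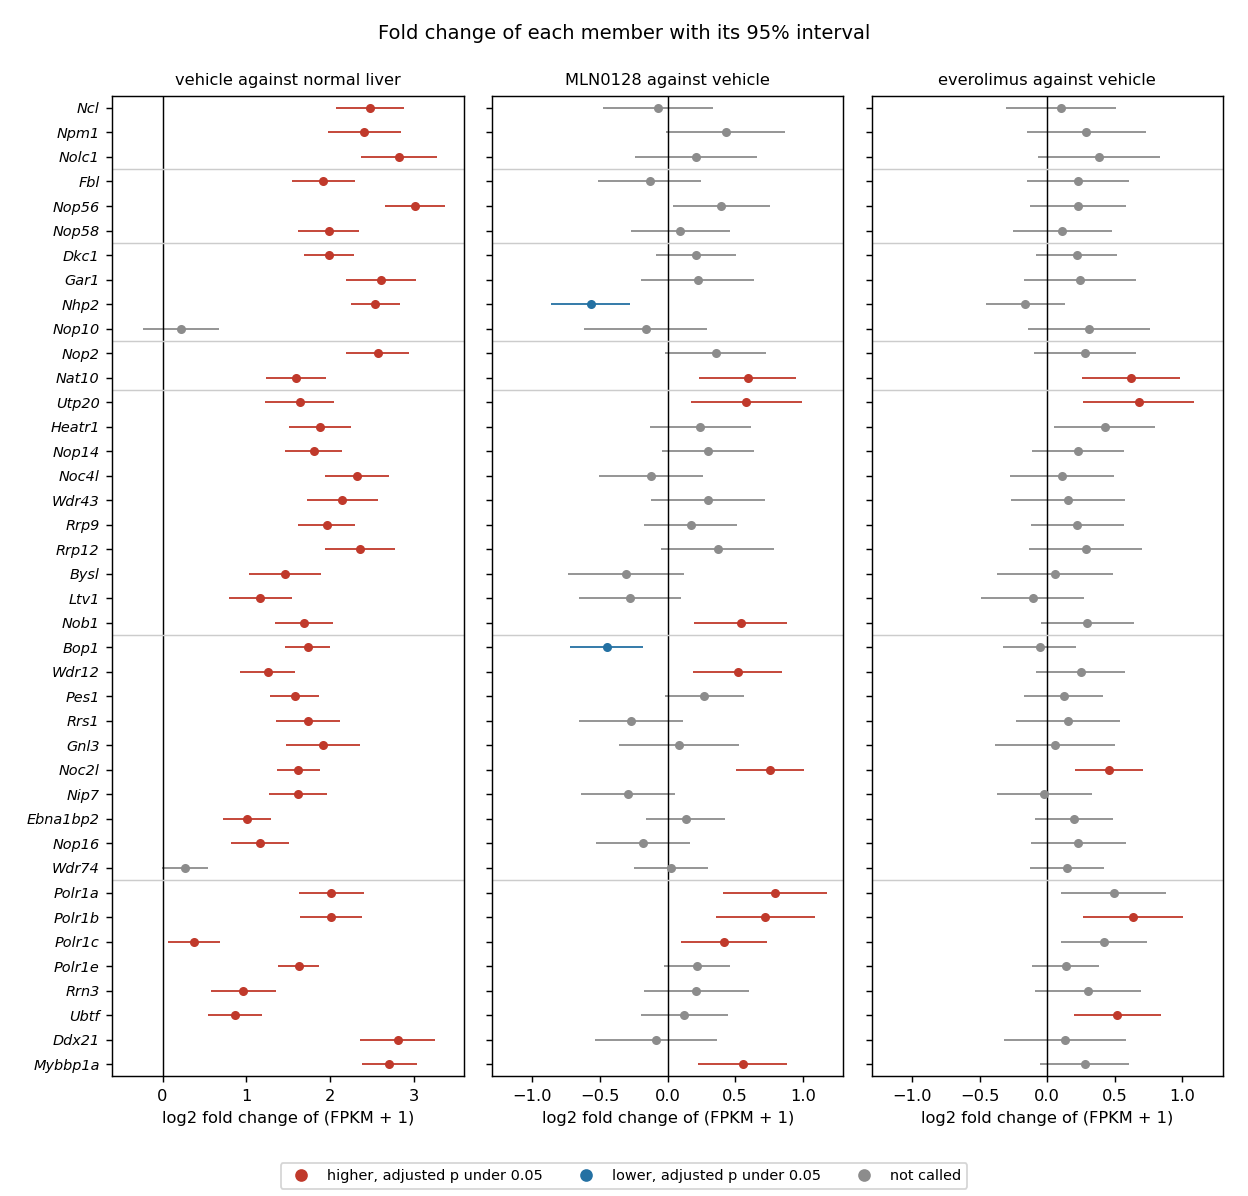
Log2 fold change of (FPKM + 1) with its 95% interval for each of the 40 genes in 3 comparisons, with red for higher, blue for lower and gray for not called by limma's moderated test at an adjusted p under 0.05. The left panel has 38 red points, the middle panel 9 red and 2 blue, and the right panel 5 red.

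Everolimus tumors were compared with the same vehicle libraries, so this comparison and the previous one share their controls. Only rises were called: 5 of 40 genes rose (against 3.78% of tested genes) and none fell (6.05%). Without adjustment 8 were higher and 0 lower at p under 0.05, where the share of tested genes was not counted. None passed 1.5-fold, where 0.0347% of tested genes were higher and 0.57% lower. The median log2 fold change was 0.23, beside 0.03 over all tested genes, and 36 of 40 were positive, against 54.7% of tested genes. Every everolimus library lay above every vehicle library in 9 genes (17.6% of tested genes) and below in none (14.8%). In everolimus tumors the marker sums were 17.2 to 61.8 FPKM for cholangiocytes, 43.4 to 132 for macrophages, 2910 to 7791 for hepatocytes and 68.9 to 95.2 for proliferation. Each sum overlapped that of vehicle tumors, but single markers did not all overlap. Krt19 was 9.49 to 44 FPKM with vehicle and 0.257 to 0.944 FPKM with everolimus. Epcam, Sox9, Cd68, Ttr and Tat were also lower in every everolimus library, and Cyp3a11 and Marco were higher. Krt7 and Spp1 overlapped, with Spp1 at 57.5 FPKM in everolimus replicate 2 against 19.2 and 15.8 FPKM in the other libraries. Their part in the result was not tested.

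Utp20, a scaffold of the small subunit processome, had 7.04, 11.4 and 8.06 FPKM with vehicle and 16.6, 12.6 and 14.4 FPKM with everolimus (log2 fold change 0.68, SE 0.19, adjusted p = 0.0434). Polr1b had 30, 21.8 and 24.4 FPKM (0.63, adjusted p = 0.0366) and Nat10 20.3, 15.1 and 18.4 FPKM (0.62, adjusted p = 0.0375), with no overlap with the vehicle values given above for either gene. Ubtf, which bends and activates ribosomal DNA, had 20.9, 20.3 and 19.7 FPKM with vehicle and 32.2, 25.6 and 31.1 FPKM with everolimus (0.52, adjusted p = 0.0477). Noc2l had 52, 42.5 and 51.9 FPKM (0.45, adjusted p = 0.0316). Polr1a (0.49, adjusted p = 0.101) and Polr1c (0.42, adjusted p = 0.0872) were not called. No member was called without vehicle replicate 1 or 3 or without everolimus replicate 1 or 3, and 1 was called without normal liver replicate 1 and 3 without normal liver replicate 2.

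Of the 14 most abundant genes by role, Nat10 was the one called with everolimus, and the other 13 overlapped the vehicle tumors. Npm1 stood at 896, 591 and 763 FPKM, Ncl at 235, 168 and 215 FPKM, Nop56 at 102, 77.7 and 94.2 FPKM and Fbl at 59.1, 38.8 and 52.6 FPKM. Nhp2 stood at 269, 211 and 232 FPKM and Nop10 at 141, 102 and 129 FPKM. In all 6 genes replicate 2 was the lowest. The same held for Nop2 at 81.4, 59.2 and 70.7 FPKM, Wdr43 at 75.6, 53.6 and 76.4 FPKM and Nop14 at 39.5, 30.8 and 38.6 FPKM. It also held for Nop16 at 73.7, 59.6 and 76.1 FPKM, Rrs1 at 68.7, 54.3 and 68.6 FPKM, Ddx21 at 99.2, 70.4 and 102 FPKM and Mybbp1a at 81, 65.1 and 83.5 FPKM.

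**Figure D4:**
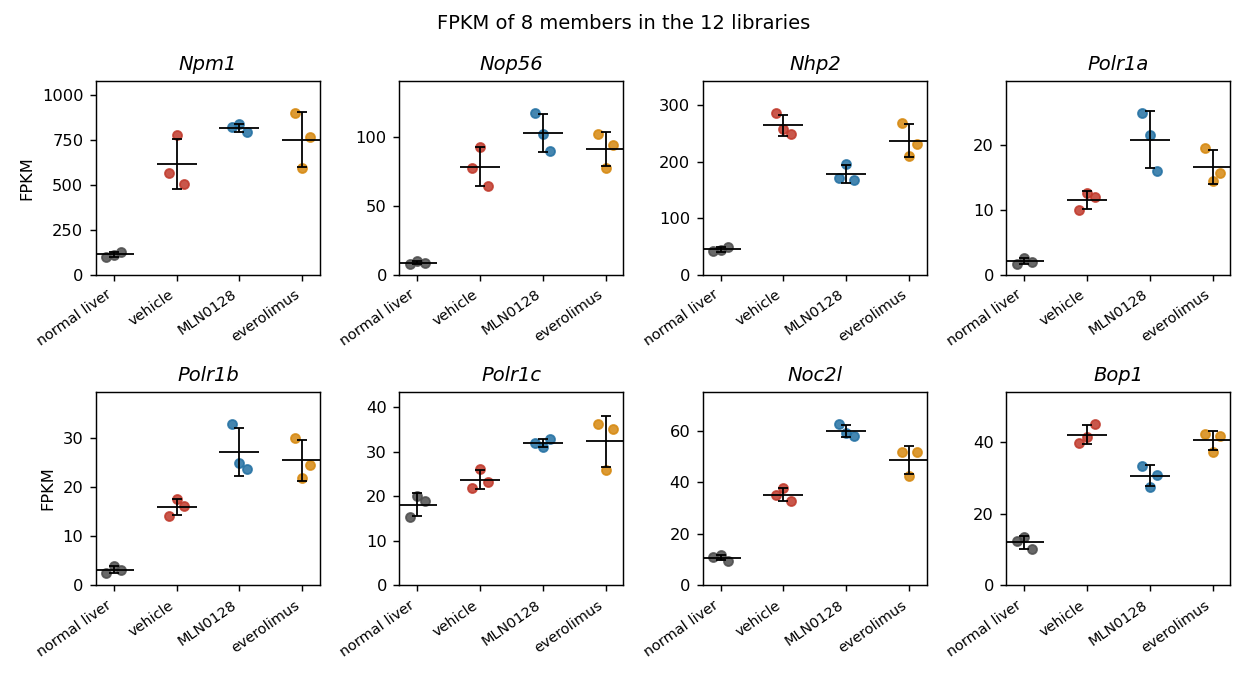
FPKM of 8 genes in each of the 12 libraries (points), with the group mean (long bar) and SD (whiskers). Nhp2 and Bop1 are lower with MLN0128 than with vehicle, Polr1a, Polr1b and Noc2l are higher, and Polr1c differs least between normal liver and tumors.

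MLN0128 and everolimus were also compared directly. By the moderated test 0 genes were higher (3.99% of tested genes) and 0 lower (5.54%). At an unadjusted p under 0.05, where the share of tested genes was not counted, 1 gene (Noc2l, 0.30) was higher and 6 were lower with MLN0128. The 6 were Nop10 (-0.47), Rrs1 (-0.42), Nop16 (-0.41), Nhp2 (-0.41), Bop1 (-0.40) and Ubtf (-0.39), with adjusted p from 0.0674 to 0.170. For Ubtf the MLN0128 libraries had 19.4, 22.7 and 24.8 FPKM, all below the everolimus libraries. The median difference was -0.04 on the log2 scale, and its sign turned under plain library totals (0.10), quantile normalization (0.14) and without everolimus replicate 1 (0.02). The 95% intervals of single genes had their lowest end at -0.92 (Nop10) and their highest at 0.69 (Polr1a), with SE from 0.11 to 0.21. A gene that was not called is not thereby shown to be equal between the drugs. Under plain library totals and quantile normalization Noc2l was called higher with MLN0128 (0.44 and 0.57, adjusted p = 0.0276 and 0.015). Without the Xist libraries 0 genes were called and the median was -0.13, and 1 gene was lower without normal liver replicate 3 or MLN0128 replicate 2.

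The treated tumors were likewise compared with normal liver. With MLN0128, 38 of 40 genes were higher (37.1% of tested genes) with a median log2 fold change of 2.12, and with everolimus 40 of 40 (35.9%) with a median of 2.12. These comparisons share the normal livers with that of vehicle tumors. The 2 genes not called with MLN0128 were Nop10 (ratio 1.07, adjusted p = 0.801) and Wdr74 (adjusted p = 0.0557), and 38 were again higher without the Xist libraries.

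Within a group the genes moved up and down together from mouse to mouse. Across the 780 pairs of members, the median correlation of deviations from the group means was 0.61 over the 12 libraries and 95.6% of pairs were positive, beside a median of 0.01 over all tested genes. This is a description, since the pairs share libraries and depth. Everolimus replicate 2 was the lowest of its group in 39 of 40 genes, and it held 4860 FPKM of albumin (Alb) against 1320 and 851 FPKM in the other two. Vehicle replicate 2 was the highest of its group in 31 genes and had 953 FPKM of Alb against 1780 and 1840 FPKM. The part of these levels in the results was not tested. Summed over the 40 genes, normal livers had 552 to 614 FPKM, vehicle tumors 2108 to 2695, MLN0128 tumors 2445 to 2759 and everolimus tumors 2225 to 3071 FPKM, so the ranges of the tumor groups overlapped. Without everolimus replicate 2, 6 genes rose against vehicle and the median was 0.34. Without everolimus replicate 1 no gene was called and the median was 0.15.

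Other genes of the pathway were taken from a list of 102 further ribosome biogenesis genes, of which 97 were tested. In vehicle tumors 80 rose (82.5%, against the 36% of all tested genes given above) and 5 fell (5.15%, against 33%), with a median log2 fold change of 1.09. The 3 largest changes were those of Rrp1b (3.16, from 0.926 to 16.2 FPKM), Ppan (2.34) and Pelp1 (2.16), all factors of the large subunit. With MLN0128, 19 rose (19.6%, against 14.9% of tested genes) and 3 fell (3.09%, against 17.1%) relative to vehicle (median 0.14), led by the processome gene Utp14a (0.92), the Pol I initiation gene Taf1c (0.67) and Noc3l (0.64). Without the Xist libraries 3 rose (Taf1a, Taf1c and Ttf1, all of Pol I transcription), none fell and the median was 0.09. With everolimus, 4 rose (4.12%, against 3.78%) and 1 fell (1.03%, against 6.05%, median 0.14), led by the AAA-ATPase gene Mdn1 (0.75), Rrp1b (0.53) and the rRNA methyltransferase gene Nsun5 (0.46). Between the drugs Taf1b (0.72) and Ddx56 (0.46) were higher with MLN0128 (2.06%, against 3.99%) and none was lower, and neither was called without the Xist libraries.

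Among the subunits of the other nuclear polymerases, the log2 fold changes of vehicle tumors all lay below those of Polr1a (2.02), Polr1b (2.01) and Polr1e (1.63). Polr1c, at 0.38, did not exceed the median of either list. Of 9 further Pol I transcription genes tested, 5 rose (55.6%, against 36% of tested genes) and 2 fell (22.2%, against 33%), with a median of 0.57. Of 12 Pol II subunits 6 rose (50%, against 36% of tested genes) and 2 fell (16.7%, against 33%), with a median of 0.39. The largest changes were in Polr2i (-1.42), Polr2e (1.40) and Polr2f (1.36), of which the last 2 are shared by all 3 polymerases. Of the 10 Pol III subunits listed, 8 rose (80%, against 36%) and none fell (against 33%), with a median of 0.50. Polr3e (1.59), Polr3d (1.46) and Polr3c (0.86) were among those that rose. With MLN0128, 3 Pol II subunits fell (25%, against 17.1% of tested genes) and none rose (against 14.9%). They were Polr2l (-0.58), Polr2d (-0.56) and Polr2i (-0.40), and Polr2l too is shared by all 3 polymerases. In the same comparison 3 Pol III subunits rose (30%, against 14.9%) and 2 fell (20%, against 17.1%). The largest changes were in Crcp (-0.93), Polr3gl (0.90) and Polr3b (0.68). Without the Xist libraries 1 Pol II subunit rose (Polr2a) and none fell, and of Pol III 1 rose and 1 fell (Polr3a and Crcp). With everolimus no listed Pol II or Pol III subunit was called by limma, where 3.78% of tested genes were higher and 6.05% lower.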

How the data were processed

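Total RNA of 12 mouse liver and tumor samples was sequenced at Novogene. The authors counted reads per gene on GRCm38 (submitters' processing notes, which also name FastQC 0.11.7) and deposited FPKM, that is fragment counts divided by transcript length and library size and scaled between libraries, rounded to 3 significant digits. The aligner is not given in the sources used here. Multiplied by GENCODE M21 exon lengths, 98.2% to 98.8% of values under 20 reads fell within 0.1 of a whole read (20% by chance). This gave the depths and the authors' scaling factors, which were 0.585 to 0.595 in normal liver and 1.10 to 1.37 in tumors. The 3 libraries of a group were separate mice per the study.

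Genes reaching 0.5 FPKM in 3 or more libraries were fitted as log2(FPKM + 1) with limma 3.58.1 in R 4.3.3, all 12 libraries in 1 model of 4 group means (8 residual degrees of freedom) with an intensity trend. Fold changes on this scale understate changes of low genes. "Rose" and "fell" mark calls of the moderated test (Benjamini-Hochberg adjusted p under 0.05 over 14397 genes), and "past 1.5-fold" the treat test. The study used edgeR on counts, for which limma stands in because FPKM are not counts. The fit was tested on simulated data before use. Near-identical genes were found by BLAST 2.17.0 (at least 95% identity over at least 200 bases). Tables were handled with pandas 2.3.3 and plots drawn with matplotlib 3.10.9.

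A gene of the polymerase lists is not reported here. The members are a list of names by function that uses no measured value, but the members, lists and tests were chosen with earlier results of these data known. Values in every library were printed for members past 1.5-fold between tumor groups (none) and for the 2 members of each role with the highest mean FPKM, and of other lists the 3 called genes with the largest change. Replicate numbers did not pair the samples: same-numbered libraries of different groups deviated with correlations of -0.29 to 0.15 (median -0.06, 18 pairs). Alternatives covered the pseudocount, filter, scaling, voom on recovered reads, the trend, the groups in the model, the replicate block, each library left out and both Xist libraries left out, which for the other lists and exon lengths was chosen after seeing the data.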

Additional observations from a re-analysis of the deposited data

How the results depend on the processing

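In vehicle tumors against normal liver, leaving out each library in turn gave 34 to 37 genes past 1.5-fold and 37 to 38 rises, and every alternative kept the number of rises within 1.5 times of 38. The median log2 fold change moved from 1.85 to 2.62 with plain library totals and to 2.04 with voom on recovered reads. Rises with MLN0128 against vehicle numbered 17 with plain library totals, 18 with quantile normalization (1 of them past 1.5-fold), 1 without the Xist libraries and 3 to 12 with a library left out, instead of 9. The falls, 2 at first, numbered 1 with plain library totals, 0 with quantile normalization, 1 without the Xist libraries and 1 to 2 with a library left out, and the median moved to 0.42 with quantile normalization. Rises with everolimus numbered 3 with a pseudocount of 0.1, 1 with only the compared groups in the model and 0 to 6 with a library left out, instead of 5. Between the drugs, 1 gene was higher with plain library totals, 1 with quantile normalization, and 0 to 1 lower with a library left out. For all of these the cause was not tested.

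With the replicate number as a replicate block, 37 genes rose in vehicle tumors, 7 rose and 2 fell with MLN0128, and 1 rose with everolimus, although the numbers do not mark shared mice. No called fold change reversed its sign under any alternative. With the filter at 1 FPKM Wdr74 was not tested. The design of 3 against 3 allows no exact permutation p under 0.1 for a single gene, so calls rest on the spread pooled over groups and genes.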

Other observations

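Among the 40 genes, those with longer exons tended to have the higher fold changes with MLN0128 against vehicle (Spearman's rho 0.40 over 40 genes that share 6 libraries, beside 0.04 over 14305 tested genes). The 15 genes with under 3 kb of exons had a median log2 fold change of 0.02 and the other 25 a median of 0.22. Without the Xist libraries rho was 0.31 and the medians were 0.03 and 0.14. With everolimus against vehicle rho was 0.26 (0.09 over tested genes) and the medians were 0.23 and 0.23, and between the drugs rho was 0.33 (-0.04 over tested genes), or 0.11 without the Xist libraries. These are descriptions across genes, which are not independent replicates.

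Of the 40 genes, 6 hold annotated snoRNA genes within their bounds: Nop56 (5), Nop58 (4), Ncl (3), Wdr43 (3), Gnl3 (3) and Dkc1 (1). All of these hosts rose in vehicle tumors, by 4.13-fold (Gnl3) to 8.96-fold (Nop56), and none was called between tumor groups in the model reported. Other scalings called 3 of them higher with MLN0128 against vehicle, namely Nop56 (adjusted p = 0.0136 with plain library totals and 0.00404 with quantile normalization), Dkc1 (0.0499 and 0.0129) and, with quantile normalization, Wdr43 (0.0221). Nop56 and Dkc1 were also called higher in that comparison without vehicle replicate 2.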
